A study of Mus musculus with 2 samples.

Results

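The sequences of 33 to 39 nt are the longest small RNAs in a deposited table of small RNA sequences from mouse dendritic cells. They were chosen by length alone, and 2393 of the 538100 distinct sequences in the table fell in this range, which is also the top of its range. The cells were grown for 7 days from bone marrow of C57BL/6 mice in medium with serum, GM-CSF and IL-4, cytokines that direct marrow precursors to dendritic cells. All of them then received lipopolysaccharide (LPS), a bacterial outer membrane component, so that no unstimulated group was at hand. The cells were swollen and lysed with a mild detergent and spun. The nuclear library was made from the pellet that contained the nuclei, the cytoplasmic library from what stayed in solution. The sources used here do not give the age of the mice, the number pooled, or the dose and time of LPS.

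Each fraction was represented by 1 library, so no difference below has a replicate check or a p-value, and every interval is a 95% interval for counting error only. Without molecular identifiers, PCR copies of 1 molecule count as separate reads, which such intervals do not cover. The nuclear library held 2000019 recovered reads and the cytoplasmic library 2041383. Of the 8 marker miRNAs with a sequence to search, the 4 myeloid ones (miR-223-3p, miR-142a-3p, miR-142a-5p and miR-511-3p) were read between 80 and 656 times in the nuclear and between 228 and 1635 times in the cytoplasmic library. The LPS-responsive miR-155-5p had 12069 and 8828 reads and miR-146a-5p 517 and 1480, and the erythroid markers miR-451a and miR-144-3p had at most 2 reads.

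MicroRNAs (miRNAs) are short regulatory RNAs cut from hairpin precursors, first in the nucleus and then in the cytoplasm, where they guide Argonaute proteins to target mRNAs through a seed near their 5′ end. Small RNAs longer than a miRNA often come from tRNAs that are cut at the anticodon loop under stress, or from fragments of ribosomal and Y RNAs. In an Illumina small RNA library, synthetic adapters are joined to both ends of each RNA, and the read runs into the 3′ adapter once the RNA ends.

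No long sequence was a tRNA, Y RNA or other transcript fragment over its whole length. Most of them began with a miRNA and went on with a 3′ stretch that the miRNA's hairpin does not encode. The most frequent miRNA was miR-146b-5p, which rises in myeloid cells after LPS, followed by the let-7 family, miR-210-3p (a hypoxia-induced miRNA) and miR-21a-5p. The mature sequences of the miRNAs with at least 20 long reads in 1 start are given first, from RefSeq on GRCm38.p6, with the seed (bases 2 to 8) in capitals, because the long sequences begin with them.
miR-146b-5p: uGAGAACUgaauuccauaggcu
miR-210-3p: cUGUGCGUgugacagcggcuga
miR-21a-5p: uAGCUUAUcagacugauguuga
let-7a-5p: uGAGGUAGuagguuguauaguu
let-7b-5p: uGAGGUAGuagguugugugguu
let-7c-5p: uGAGGUAGuagguuguaugguu
let-7e-5p: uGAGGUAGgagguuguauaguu
let-7f-5p: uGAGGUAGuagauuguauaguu
let-7i-5p: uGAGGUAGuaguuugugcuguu
The 6 let-7 members share 1 seed, and the other 3 miRNAs have a seed each. The mature miR-146b-5p lies at chr19:46342790-46342811 on the plus strand, miR-210-3p at chr7:141221407-141221428 on the minus strand and miR-21a-5p at chr11:86584120-86584141 on the minus strand. Each of these is the arm of an annotated miRNA hairpin gene (Mir146b, Mir210 and Mir21a).

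The 13 sequences that were among the 10 most read in either library all began with the same 23 bases of the Mir146b hairpin. Among them, 7 are shown, with the unmatched 3′ bases in capitals, because they show a shared start and a varied end.
miR-146b long 1: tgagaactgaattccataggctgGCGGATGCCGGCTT
miR-146b long 2: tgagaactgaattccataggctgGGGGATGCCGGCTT
miR-146b long 3: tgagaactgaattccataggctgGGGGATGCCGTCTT
miR-146b long 4: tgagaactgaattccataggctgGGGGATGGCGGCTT
miR-146b long 5: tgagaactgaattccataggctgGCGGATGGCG
miR-146b long 6: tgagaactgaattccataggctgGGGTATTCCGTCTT
miR-146b long 7: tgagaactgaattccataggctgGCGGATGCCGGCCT
The first had 34 nuclear and 24 cytoplasmic reads, the second 20 and 29, the third 12 and 18, and the fourth 9 and 16. These 4 differed between the libraries by less than counting error. The fifth, of 33 nt, had 2 nuclear and 22 cytoplasmic reads, a cytoplasmic over nuclear ratio of 10.8 (2.65 to 94.6) after scaling to library totals. The sixth had 7 and 9 reads. The seventh, which ends in CCT, had 14 nuclear reads and 1 cytoplasmic read, a nuclear over cytoplasmic ratio of 14.3 (2.17 to 604). The fifth was among the 10 most read in the cytoplasmic library only, and the seventh in the nuclear library only. Each was thus listed through the library where it was high, so opposite ratios were to be found in such a list. Whether the 3′ stretch goes with the library was not tested.

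The long sequences made up a small share of either library and were more frequent in the cytoplasmic one. They took 1121 nuclear reads of 935 sequences, or 0.0560% of the library (0.0528 to 0.0594, exact Clopper-Pearson interval). They took 1875 cytoplasmic reads of 1551 sequences, or 0.0919% (0.0877 to 0.0961). The cytoplasmic share was 1.64-fold the nuclear share (1.52 to 1.77). In bulk fractions like these, the amount of an RNA per cell and the number of cells behind a library cannot be told apart. Sequences of 26 to 30 nt went the other way, with 49751 nuclear and 22563 cytoplasmic reads, a nuclear over cytoplasmic ratio of 2.25 (2.22 to 2.29). Of the long sequences, 93 were in both libraries, and 2231 (93.2%) were seen once over both, against 71.3% of the sequences of 18 to 32 nt. The most read long sequence had 58 reads over both libraries.

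Within the range, reads were concentrated at 37 and 39 nt. At 37 nt there were 690 nuclear reads (61.6%, 58.6 to 64.4) and 1192 cytoplasmic reads (63.6%, 61.4 to 65.8). At 39 nt there were 266 (23.7%) and 459 (24.5%), and at 33 nt 57 (5.09%) and 114 (6.08%). The remaining lengths were sparse. There were 7 nuclear and 3 cytoplasmic reads at 34 nt, 13 and 6 at 35 nt, 38 and 45 at 36 nt, and 50 and 56 at 38 nt. The libraries had nearly the same profile, and the share at 37 nt and at 39 nt differed between them by less than counting error. Just outside the range the table was almost empty, with 6 reads in each library at 32 nt and 23 and 10 at 31 nt. The long sequences were thus set apart from the shorter ones. Since 34 and 35 nt were about as sparse, the reads at 33 nt also stood apart from those of 36 to 39 nt.

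**Figure D1:**
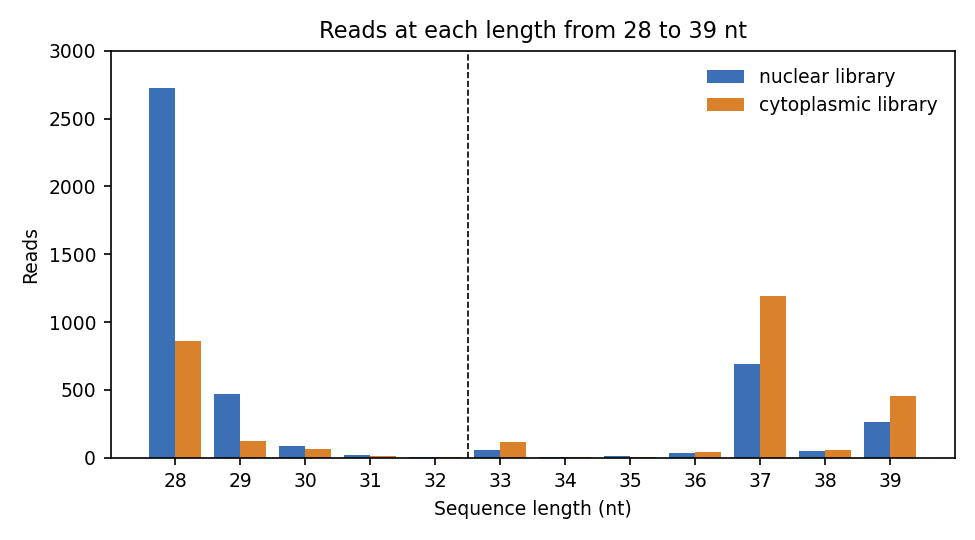
Reads (vertical axis) at each sequence length from 28 to 39 nt (horizontal axis) in the nuclear and cytoplasmic libraries, 1 library each, with a dashed line at the lower edge of the range described. Reads fall to 6 in each library at 32 nt and peak again at 37 nt, with 690 nuclear and 1192 cytoplasmic reads, and at 39 nt, with 266 and 459.

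The 5′ base, which in miRNAs is often U, was T in most long reads. T began 65.1% of nuclear (62.3 to 67.9) and 83.4% of cytoplasmic long reads (81.7 to 85.1). In sequences of 18 to 32 nt it began 49.2% and 64.9%. The difference between the libraries was small among members with a miRNA 5′ part, of whose reads 89.4% and 89.1% began with T. Among members without one, T began 35.1% of nuclear and 60.3% of cytoplasmic reads. The difference between the libraries was lost among sequences with at least 2 reads, where T began 94.9% and 94.3%. These sequences held 0.0169% of nuclear and 0.02455% of cytoplasmic library reads, against 0.0560% and 0.0919% for all long sequences. A miRNA 5′ part was in 99.3% and 100% of their reads, so this setting leaves out nearly all members without one. C began 15.3% and 7.63% of all long reads, A 9.72% and 6.56%, and G 9.90% and 2.40%.

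None of the 2393 long sequences matched a GENCODE vM21 transcript or a recovered tRNA sequence over its full length, and none did so after removal of up to 3 bases from the 3′ end. Taking 3 reads as the limit that a count of 0 allows, this leaves up to 0.268% of the nuclear and 0.160% of the cytoplasmic long reads. Allowing 1 mismatch to small RNAs gave none either. Of the reads of 18 to 32 nt, 52.9% and 68.3% matched over their full length. tRNAs cut at the anticodon, which this length would allow, were not found. No long sequence began within 2 nt of a tRNA 5′ end or ended within 3 nt of a tRNA 3′ end. Of the 535707 sequences of 18 to 32 nt, 570 did. They had 2135 of 1998898 nuclear and 11077 of 2039508 cytoplasmic reads. At shares this small few of the long reads would be of this kind, so the 0 tells little, above all in the nuclear library. Only 13 of 408 cytosolic tRNA loci had a sequence to search, so the tRNA promoter boxes were searched as well. The A box, by name, began at base 7 to 9 in 4 long sequences, with 4 nuclear reads. The B box, by name, together with a CCA end was in none, and 1 long sequence ended in CCA, the triplet added to mature tRNAs.

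The 5′ parts of the long sequences did match. In 1660 of them the first 18 or more bases matched a transcript exactly, which covered 722 nuclear (64.4%) and 1541 cytoplasmic reads (82.2%). The same sequences read backwards matched in 27 cases (1.13%). miRNA hairpins gave 1523 of these sequences, with 620 nuclear (55.3%, 52.3 to 58.3) and 1505 cytoplasmic reads (80.3%, 78.4 to 82.1). Scaled to library totals, the cytoplasmic over nuclear ratio of these reads was 2.38 (2.16 to 2.62). Among sequences with at least 2 reads the miRNA shares were 99.3% and 100%, and without sequences that also lie in another class of transcript they were 49.8% and 53.4%, so that the gap between the libraries narrowed under both settings. The matched part was 18 to 26 bases long in these, with a median of 23, and the unmatched 3′ part 8 to 21 bases, with a median of 14. Over all classes no match ran beyond 30 bases.

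The other 137 sequences with a matched 5′ part had 102 nuclear and 36 cytoplasmic reads, a nuclear over cytoplasmic ratio of 2.89 (1.96 to 4.36). Ribosomal RNA gave 58 of them, with 43 and 16 reads, a nuclear over cytoplasmic ratio of 2.74 (1.51 to 5.22). They fell in annotated genes that carry rRNA-like sequence, namely Lars2 (24 nuclear and 11 cytoplasmic reads), Gm42418 (12 and 5) and Gm26917 (7 and 0). Exons of long non-coding RNAs had 25 and 5 reads and exons of mRNAs 21 and 10. Retained introns had 3 and 3, Cajal body RNAs 3 and 0, snoRNAs 2 and 0, spliceosomal snRNAs 1 and 1, and the signal recognition particle RNA 7SL and the transcription regulator 7SK 1 and 0 each. Another small RNA had 1 and 0, and repeat-like sequence 1 and 1. Cytosolic and mitochondrial tRNA, Y RNA, vault RNA and mitochondrial rRNA had no read.

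**Figure D2:**
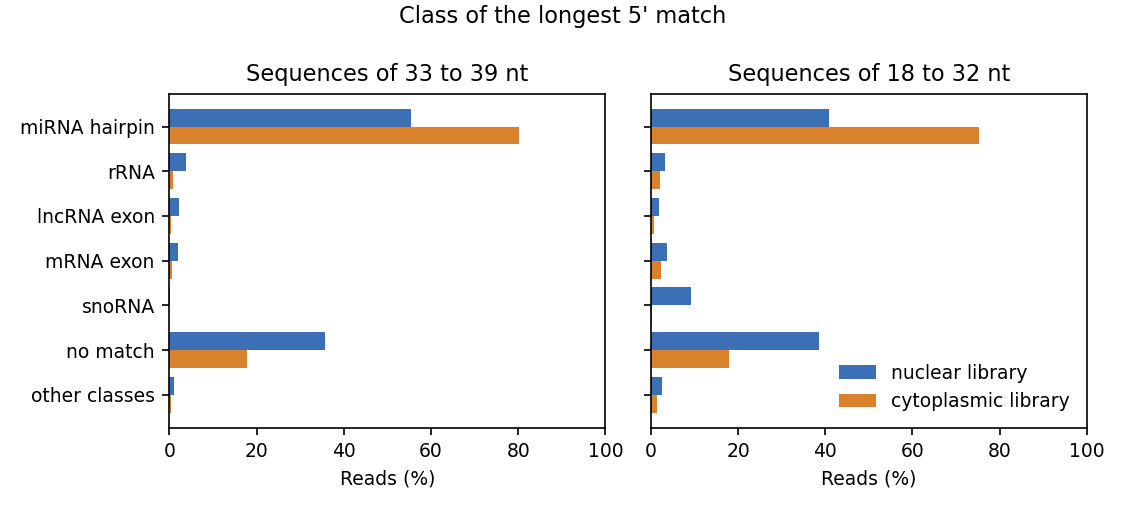
Percent of reads (horizontal axis) by the RNA class of the longest exact 5′ match of at least 18 bases, for sequences of 33 to 39 nt (left) and of 18 to 32 nt (right) in each library. miRNA hairpins take 55.3% of nuclear and 80.3% of cytoplasmic long reads, and snoRNA, visible among the shorter nuclear reads, is close to 0 among the long ones.

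The remaining 733 long sequences had no match, with 399 nuclear and 334 cytoplasmic reads. Of these, 268 began within 2 mismatches of a mature miRNA over their first 18 bases, with 64 nuclear and 204 cytoplasmic reads. Counted by mature start alone, 1510 long sequences had the first 18 bases of a mature miRNA without a mismatch and 1781 of 2393 (74.4%) with up to 2. The latter took 61.0% of nuclear and 90.6% of cytoplasmic long reads. No long sequence read backwards came as close to a mature miRNA. The other 465 sequences without a match, with 335 nuclear and 130 cytoplasmic reads, were not assigned, and the genome outside transcripts was not searched here. Single-base differences within the first 18 bases of miR-146b-5p were in 5.66% of nuclear (3.83 to 8.03) and 6.63% of cytoplasmic long reads (5.05 to 8.52), against 4.48% and 4.01% of short reads, and only the cytoplasmic interval excluded the short-read value. For miR-210-3p they were in 3.23% and 4.39% of long and 4.35% and 4.67% of short reads, within counting error. For miR-21a-5p they were in 9.88% of cytoplasmic long reads (4.36 to 18.5), on 8 such reads, against 3.02% of short ones. That interval also excluded the short-read value. Its nuclear long reads, 2 without a difference and 0 with one, were too few to compare.

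The starts of the long sequences were shared with each other and with shorter reads. Grouped by their first 20 bases, they formed 708 start groups, of which 633 held a single sequence. The largest, that of miR-146b-5p, held 704 sequences and 1269 reads, 42.4% of all long reads, and the 10 largest held 67.3%. The first 18 bases were also those of a sequence of 18 to 32 nt for 84.6% of the members, or 77.8% of nuclear and 93.7% of cytoplasmic long reads.

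The libraries were compared for the 11 start groups with at least 20 reads. A group was called when its ratio of library shares, with a pseudocount of 0.5 reads, reached 2-fold and its interval excluded 1. Over start groups of all lengths this rule called 48.5% of 6230 higher and 20.9% lower in the nuclear library, or 3022 and 1302. Scaled to miRNA reads, it called 3688 higher and 678 lower. Among the long sequences it called 1 higher and 7 lower, and 3 were neither. The 7 lower groups were those of let-7a, let-7b, let-7c, let-7e, let-7f, let-7i and miR-21a. let-7a had 20 nuclear and 139 cytoplasmic long reads, a log2 nuclear over cytoplasmic ratio of -2.74, and let-7c 14 and 111 reads, a log2 ratio of -2.91. let-7b had 12 and 74 reads, let-7f 10 and 48, let-7e 3 and 25, and let-7i 2 and 22. miR-21a was the most uneven, with 2 nuclear and 71 cytoplasmic reads, a log2 ratio of -4.81.

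miR-146b-5p, with 482 nuclear and 787 cytoplasmic reads in its start group, had a log2 ratio of -0.68, and miR-210-3p, with 59 and 107, of -0.82. Both stayed under 2-fold, and both changed sign when scaled to the reads of all miRNAs in each library, to 0.23 and 0.08. Scaled to the reads of 33 to 39 nt, miR-146b-5p stood at 0.04 and miR-210-3p at -0.11. All 7 lower groups stayed lower under both scalings, let-7f, the nearest to equality, at -1.27 and -1.47. The 1 group called higher in the nuclear library began with 20 adenines and held 28 sequences, with 20 nuclear and 8 cytoplasmic reads, a ratio of 2.55 (1.08 to 6.70), and no read of 18 to 32 nt had that start. Runs of 8 or more of 1 base were in 7.67% of nuclear and 1.92% of cytoplasmic long reads, against 0.0966% and 0.0456% of shorter reads. The third uncalled group had a start found in rRNA-like sequence, with 13 and 7 reads.

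How often a miRNA was seen in a long form depended on the miRNA and, for some, on the library. Here all reads that share the first 18 bases of a mature miRNA were taken, and the long reads are given per 10000 of them. miR-146b-5p had 483 long and 32548 short reads in the nuclear library, or 146.2 per 10000 (134 to 160). In the cytoplasmic library it had 789 long and 96469 short reads, or 81.1 per 10000 (75.6 to 87.0). Its long share was thus higher in the nuclear library, and the intervals did not overlap. miR-210-3p had 60 long reads beside 3233 short ones in the nuclear library and 109 beside 5208 in the cytoplasmic one. These were 182 (139 to 234) and 205 (169 to 247) per 10000, which overlapped.

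The let-7 family and miR-21a, a broadly expressed miRNA, had far fewer long reads for their abundance. let-7a and let-7c, which share their first 18 bases, had 34 long reads beside 166652 short ones in the nuclear library and 258 beside 260319 in the cytoplasmic one, or 2.04 (1.41 to 2.85) and 9.90 (8.73 to 11.2) per 10000. let-7b stood at 3.73 and 18.4 per 10000, and miR-21a at 0.368 and 3.31. All let-7 starts together had 65 nuclear and 478 cytoplasmic long reads, or 1.52 (1.17 to 1.93) and 6.98 (6.37 to 7.63) per 10000. For let-7 the long share was higher in the cytoplasmic library, opposite to miR-146b-5p. All mature starts without miR-146b-5p stood at 1.89 (1.58 to 2.23) and 5.25 (4.87 to 5.65).

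**Figure D3:**
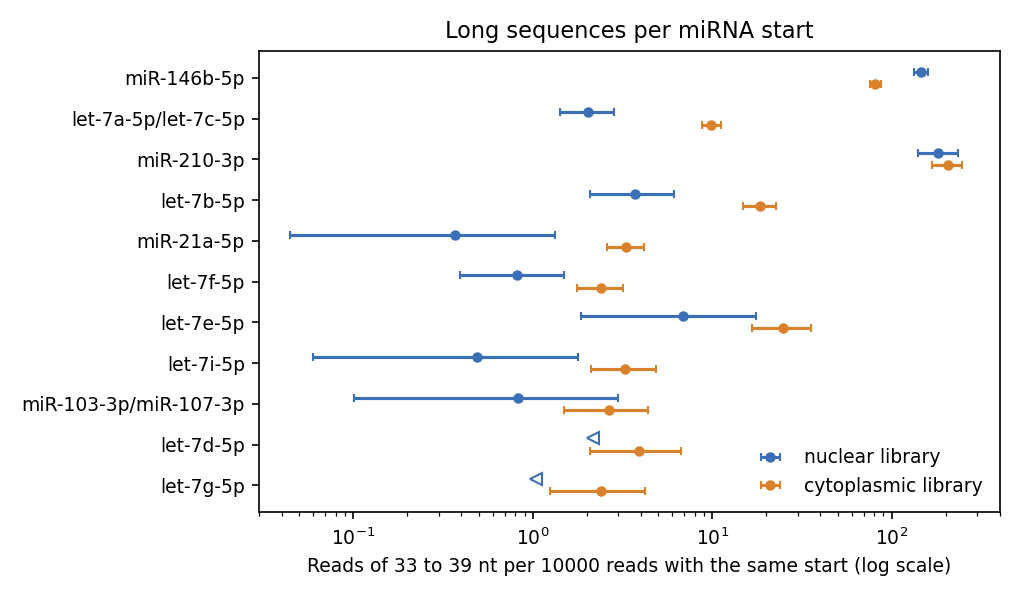
Reads of 33 to 39 nt per 10000 reads with the same first 18 bases (horizontal axis, log scale) for the miRNA starts with most long reads, with 95% exact intervals. An open arrowhead marks the upper limit where there was no long read. miR-146b-5p (146.2 nuclear and 81.1 cytoplasmic) and miR-210-3p (182 and 205) lie far to the right of the let-7 starts and miR-21a-5p.

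The same contrast shows in the library ratios of long and short reads. The cytoplasmic over nuclear ratio of long miR-146b-5p reads was 1.60 (1.43 to 1.80), and that of its short reads was 2.90 (2.87 to 2.94). For miR-210-3p the ratios were 1.78 (1.29 to 2.48) and 1.58 (1.51 to 1.65). For let-7a and let-7c the ratio was 7.43 among long reads (5.19 to 10.97) and 1.53 among short ones. For miR-21a-5p it was 35.8 (9.55 to 301), on 2 nuclear long reads, and 3.97. The intervals of the long reads overlapped among the let-7 members, so that no order among them was detectable at this depth.

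**Figure D4:**
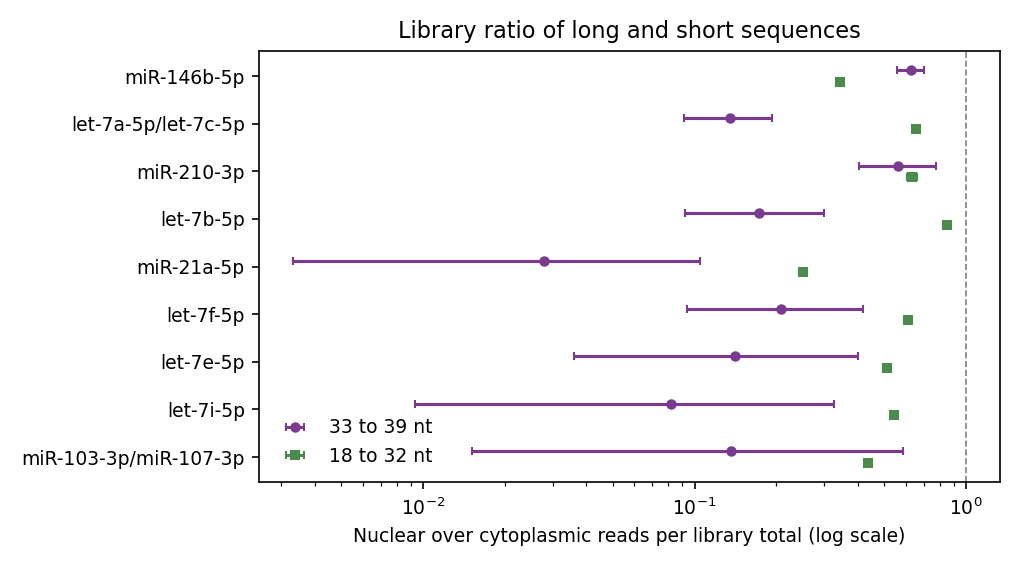
Nuclear over cytoplasmic ratio of reads per library total (horizontal axis, log scale) for long and short sequences with the same miRNA start, with 95% conditional exact intervals and a dashed line at equality. For let-7a and let-7c the long reads lie left of the short ones (cytoplasmic over nuclear 7.43 against 1.53), while for miR-146b-5p they lie to the right (1.60 against 2.90).

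The long share did not follow abundance alone. Over both libraries, let-7a with let-7c, first by short reads, had 6.83 long reads per 10000. miR-146b-5p, in place 4, had 97.6 and miR-210-3p, in place 28, had 196. Of 531 mature starts with reads, 33 had a long read, and 15 of these had only 1. Of the 30 most abundant starts, 5 had none, namely miR-423-5p, miR-192-5p, miR-26b-5p, miR-744-5p and miR-340-5p. miR-29a-3p, a miRNA of the ninth place by short reads, had 28439 nuclear and 48951 cytoplasmic short reads and 1 long read. miR-155-5p had 1 long read, in the nuclear library, and miR-146a-5p, which shares its seed with miR-146b-5p, 1 in the cytoplasmic library.

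The 3′ stretch of the long sequences was variable but not random. For miR-146b-5p at 37 nt (424 sequences, 392 nuclear and 503 cytoplasmic reads) and at 39 nt (179 sequences, 35 and 155 reads), and for 4 other starts at their main length, the commonest base at each position was taken over both libraries. The resulting sequences are shown, with capitals after the median end of the hairpin match, because they show how far the stretches of different miRNAs are alike.
miR-146b-5p, 37 nt: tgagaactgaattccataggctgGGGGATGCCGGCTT
miR-146b-5p, 39 nt: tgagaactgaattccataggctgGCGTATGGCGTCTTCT
miR-210-3p, 39 nt: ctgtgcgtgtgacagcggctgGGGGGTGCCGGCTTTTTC
let-7a and let-7c, 37 nt: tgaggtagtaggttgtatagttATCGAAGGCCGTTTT
let-7b, 37 nt: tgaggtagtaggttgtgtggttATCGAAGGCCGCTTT
miR-21a-5p, 37 nt: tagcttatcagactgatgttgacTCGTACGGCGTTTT
miR-146b-5p at 37 nt and miR-210-3p, from hairpins on different chromosomes, shared a run of 9 bases, TGCCGGCTT, in the capitals. Within this run the commonest miR-210-3p base led narrowly at base 29 (41.0% against 37.4% of reads) and base 32 (47.5% against 44.6%). miR-146b-5p at 39 nt shared runs of only 3 bases with its own form of 37 nt and with miR-210-3p of the same length. A run counts adjoining bases only. Base by base, the commonest bases of the miR-146b-5p forms of 37 and 39 nt differed only at bases 25, 27, 31 and 34, up to base 37. At base 27 of the form of 39 nt, T led G narrowly (46.3% against 45.8% of reads), and the form of 37 nt has G there. let-7a with let-7c and let-7b shared 11, ATCGAAGGCCG, and the runs shared between miR-146b-5p at 37 nt and let-7 were of 4 bases. In the miR-146b-5p stretch a single base took between 57.2% and 97.1% of the reads at each position, with a mean of 79.7%. In those of let-7b and miR-21a-5p the mean was 61.0% and 60.9%.

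**Figure D5:**
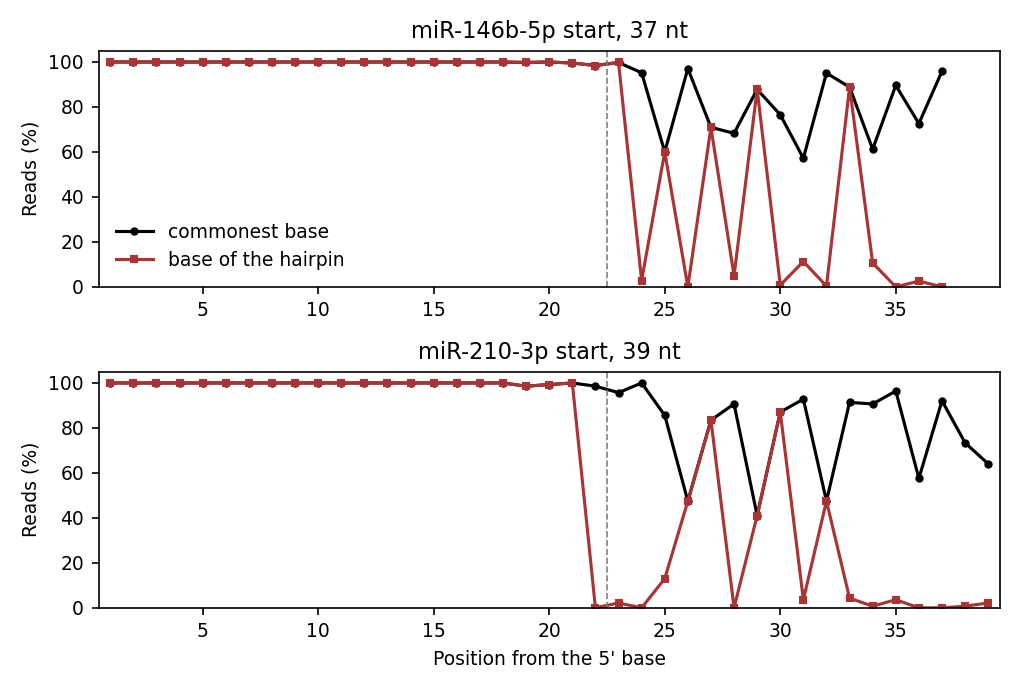
Percent of reads (vertical axis) with the commonest base and with the base of the hairpin at each position from the 5′ base, for miR-146b-5p starts of 37 nt (top) and miR-210-3p starts of 39 nt (bottom), both libraries together. The dashed line follows base 22, the last of the mature miRNA. The hairpin base is in nearly all reads up to base 23 (miR-146b-5p) or 21 (miR-210-3p) and drops just after. Later it is again the commonest base at some positions, such as base 29 of miR-146b-5p (87.8%) and base 30 of miR-210-3p (87.1%).

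For miR-146b-5p and miR-210-3p the first base past the hairpin match was examined. With positions counted from 1 at the 5′ base and the hairpin's base written first, the change T24G was in 92.6% of nuclear (89.8 to 94.7) and 93.5% of cytoplasmic long miR-146b-5p reads (91.6 to 95.2). Among the reads of 18 to 32 nt that reach this base, T24G was in 33.3% and 27.7%, and the hairpin's base in 57.2% and 64.7%. A pair of the most read short forms shows both ends.
miR-146b short with the hairpin base: tgagaactgaattccataggctgt
miR-146b short with G: tgagaactgaattccataggctgG
The form with the hairpin base had 9380 nuclear and 34372 cytoplasmic reads and the form with G 5063 and 11919. In miR-210-3p the change A22G was in 98.3% and 98.2% of long reads, and in 9.12% and 8.74% of the short reads that reach it. The base that nearly all long forms carried was thus in a minority of the short forms of both miRNAs. The position was chosen where the match of the long reads ends, so a rare hairpin base in them was largely set by that choice. Which base took its place was not.

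The length of the long reads also differed by miRNA. Of the long miR-146b-5p reads, 81.2% of the nuclear (77.4 to 84.6) and 63.8% of the cytoplasmic ones (60.3 to 67.1) had 37 nt, and 7.25% (5.10 to 9.93) and 19.7% (16.9 to 22.6) had 39 nt. These intervals did not overlap. Of the long miR-210-3p reads, 81.7% and 82.6% had 39 nt. let-7a with let-7c stood at 37 nt in 82.4% and 80.6% of reads.

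A recurrent 6-base run, ATGCCG, was in the bases after position 18 of 312 long sequences (13.04%), or 21.1% of nuclear and 16.4% of cytoplasmic long reads. It was in 12.5% of the miR-146b-5p sequences, in 11.96% of those with another mature miRNA start and in 14.5% of those with no match. By reads it was more frequent with miR-146b-5p, at 28.6% of nuclear (24.6 to 32.8) and 22.2% of cytoplasmic reads (19.3 to 25.2), than with the other mature miRNA starts, at 13.97% (8.63 to 20.95) and 11.9% (9.63 to 14.6). GCTGGG, which takes in the end of the miR-146b-5p match, was in 41.7% of the miR-146b-5p sequences after position 18. Counted so, it was in none of those with another mature miRNA start. In miR-210-3p the run begins at base 18 and so escaped the count. The G bases that complete it there, at bases 22 and 23, were in 98.6% and 95.7% of miR-210-3p reads of 39 nt. In sequences of 37 nt ATGCCG began at base 28 in 332 of 389 reads (85.4%), and in those of 33 nt at base 28 in 30 of 30. CGGCTT was in 14.96% and CGTCTT in 12.4% of the long sequences. Sequences of up to 32 nt end before ATGCCG is complete from base 28. It also began earlier, down to base 21 at 37 nt and base 25 at 39 nt, and GCTGGG lies at the end of the match. Of 28918 sequences of 26 to 32 nt, ATGCCG was in 0.0588%, GCTGGG in 0.33%, CGGCTT in 0.0865% and CGTCTT in 0.0415%. These sequences have fewer bases after position 18, so their shares and those of the long ones are not on the same footing. A TT end closed 39.9% of nuclear and 49.97% of cytoplasmic long reads, against 21.3% and 29.8% of shorter ones. No source used here gives the 3′ adapter's sequence or the trimming, and the part of either in these stretches was not tested.

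Like stretches were present just under the range. They are shown for miR-29a-3p, which had 1 read of 33 to 39 nt, and for miR-146b-5p.
miR-29a-3p, 31 nt: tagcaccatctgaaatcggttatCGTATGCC
miR-29a-3p, 30 nt: tagcaccatctgaaatcggttatCGTATGC
miR-146b-5p, 30 nt: tgagaactgaattccataggctgGCGTATT
The first had 2 cytoplasmic reads, the second 3 cytoplasmic reads, and the last 1 nuclear and 4 cytoplasmic reads. Neither miR-29a-3p form was read in the nuclear library.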

How the data were processed

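The authors deposited a table of distinct sequences of 18 to 39 nt with an RPM value for the nuclear and the cytoplasmic library. The submitters' processing notes name CASAVA and mm10. For trimming, adapter, alignment and filters, nothing is given in the sources used here. The columns were assigned on the last letter of their names, N or C. All values (100.0%) were whole multiples, within 0.1 read, of 1 read (0.500 and 0.490 RPM), which gave 2000019 and 2041383 reads.

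The longest exact 5′ match of at least 18 bases was sought on the sense strand of 141800 GENCODE vM21 transcripts and 13 tRNA sequences, and classes were assigned in a fixed order, miRNA hairpins first. Sequences in more than 10 long genes were set apart. The matching and the call rule were tested on simulated data. With 1 library per group, edgeR's quasi-likelihood test could not be fitted, and no p-value is given. Start groups replaced gene entries in the comparison, since no member matched in full. Alternatives were other length limits, read minimums, start lengths, scalings, pseudocounts and match rules.

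Named were the 10 sequences and start groups with most reads in each library, the gene entries with most reads, and listed RNA classes. The members and lists were chosen with earlier results of these data known. Python 3.11.15, numpy 2.4.6, pandas 2.3.3, scipy 1.17.1 and matplotlib 3.10.9 were used.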

Additional observations from a re-analysis of the deposited data

How the results depend on the processing

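No member matched in full under any length limit, read minimum or mismatch setting tried, and none lay at a tRNA end at any distance tried. With the longest 5′ match instead, added after the data were seen, 64.4% of nuclear and 82.2% of cytoplasmic long reads matched. Limits of 34 to 38 nt gave shares of 0.0399% and 0.0638%, a 5′ T in 73.4% and 88.4%, and a miRNA 5′ part in 60.15% of nuclear reads. Counting distinct sequences gave shares of 0.234% and 0.917%, a 5′ T in 58.7% and 80.7%, and a miRNA 5′ part in 46.5% and 76.1%. Sequences with at least 2 reads gave 0.0169% and 0.02455%, 94.9% and 94.3%, and 99.3% and 100%. The miRNA share fell to 49.8% and 53.4% where sequences that also lie in another class of transcript were left out, since several hairpins lie within longer transcripts. It was 77.8% in the cytoplasmic library with a 5′ part of at least 20 bases, and 61.0% and 90.6% with up to 2 mismatches to a mature miRNA. Starts of 25 bases gave 1097 groups, the largest with 20.4% of reads. Start groups higher in the nuclear library numbered 2 of 20 with a minimum of 10 reads (12 lower), 0 of 7 with 50, and 2 of 11 when scaled to the range or to miRNA reads. Groups lower in the nuclear library numbered 5 of 7 with 50 reads and 7 of 11 under either scaling. Over all lengths these settings called 4944 of 10591, 1447 of 3033, 3525 of 6230 and 3688 of 6230 higher. They called 1909, 677, 790 and 678 of these lower. No paired analysis was possible because each group had 1 library. With 1121 and 1875 long reads in all, 15 of the 33 mature starts with long reads had only 1.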

Other observations

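The matched parts of the miR-146b-5p and miR-210-3p long sequences end in the same 5 bases, GGCTG, a feature picked after the values were seen. Among the 58 mature starts with at least 1000 short reads, 3 had GGCTG within bases 16 to 28 of the hairpin, counted from the mature 5′ end. They were miR-210-3p and miR-146b-5p, which stood first and second by long reads per 10000 (196 and 97.6 over both libraries), and miR-26a-5p, which had 1 long read beside 4489 nuclear and 5599 cytoplasmic short reads. GGCTG was taken from miR-210-3p and miR-146b-5p, so their rank is no test of it. The next start, let-7e-5p, stood at 18.9 per 10000. Of the 58 starts, 29 had no long read, so the median of 0.0646 lies at the edge of the zeros. Some of these 29 had few short reads, such as miR-128-3p with 334 nuclear and 694 cytoplasmic ones. With 3 reads as the limit of a 0, its share could still lie above that of let-7e-5p. GGCTG closed the matched part in 780 of 1523 members with a miRNA 5′ part and in 14 of 137 with another 5′ part. It lay past base 12 in 34 of the 465 unassigned ones. No rate over other sequences is set beside these counts, so they say nothing on GGCTG itself.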
